A study of Homo sapiens with 18 samples.

Results

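The protein kinase C (PKC) and protein kinase D (PKD) genes were followed in cultured human neuroblastoma cells after a brief exposure to cocaine. The family is represented here by 10 genes, PRKCA, PRKCB, PRKCD, PRKCE, PRKCQ, PRKCI, PRKCZ, PRKD1, PRKD2 and PRKD3, and by every probe set that the array annotation assigns to 1 of these symbols alone, 32 probe sets of 54675. The array names 19775 genes in this way. The family was chosen with earlier results of these arrays known, and was selected on measured changes between 5 and 0 μM cocaine at 6 h. The values of that comparison are therefore given as a description, without p-values.

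SH-SY5Y is an established human neuroblastoma line that takes on neuron-like features in retinoic acid. All cells, the untreated ones included, had been differentiated with 10 μM retinoic acid for 7 days and then kept without it for 24 h. They were exposed to cocaine for 30 min and collected 6 or 24 h later. The groups were 5 μM, 1 μM and 0 μM cocaine at 6 h and the same doses at 24 h, with 3 Affymetrix U133 Plus 2.0 arrays each, 18 in all, and each array held RNA pooled from 3 dishes. Labels at 5 μM name this dose and, beside it, a non-treated control; the dose was used. All pools come from 1 cell line, so p-values measure only the spread between these pools of dishes.

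PKC enzymes phosphorylate serine and threonine residues and fall into 3 classes by what switches them on. The conventional enzymes need calcium and diacylglycerol, the lipid that phospholipase C releases in the membrane. A calcium-independent class needs diacylglycerol alone, and the atypical class needs neither and is held in place by partner proteins. PKD enzymes bind diacylglycerol too and are themselves phosphorylated and activated by PKC. In neurons these kinases act on ion channels, transmitter transporters, vesicle release and the cytoskeleton.

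The largest changes among the kinases at 6 h were carried by a single probe set of PRKCI and a single probe set of PRKD2. The 110 bases before the annotated starts of these genes are shown because their promoters are where a shared element would be sought. The sequences are those of RefSeq on GRCh38.p14, each read 5′ to 3′ on the strand of its gene. The PRKCI stretch is chr3:170222314-170222423 on the plus strand, and those of PRKD2 are chr19:46717115-46717224 (start 1) and chr19:46714321-46714430 (start 2) on the minus strand. Capitals mark GC boxes (GGGCGG on either strand) and the core of the cAMP response element (TGACG on either strand).
PRKCI: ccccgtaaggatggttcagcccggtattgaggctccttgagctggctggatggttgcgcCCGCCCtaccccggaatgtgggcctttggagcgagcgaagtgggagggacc
PRKD2 start 1: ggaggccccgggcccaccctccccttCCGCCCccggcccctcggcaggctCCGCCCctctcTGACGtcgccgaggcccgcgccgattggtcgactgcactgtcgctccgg
PRKD2 start 2: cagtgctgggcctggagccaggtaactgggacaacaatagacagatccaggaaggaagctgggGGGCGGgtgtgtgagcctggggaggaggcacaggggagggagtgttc

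Over 250 bases before each start, the 10 genes had 17 windows in the RefSeq table, and 13 held a GC box, against 42.6% of all 35116 windows. The TPA response element (TGANTCA), named for a phorbol ester that activates PKC, was in 0 of the 17, against 6.57% of all windows. The cAMP core TGACG was in 3, of PRKCZ and PRKD2, against 21.2%, and the full element TGACGTCA, which contains it, was in 1, of PRKCZ, against 1.65%. The retinoid half-site AGGTCA was in 2, of PRKCQ and PRKCZ, against 12.1%. All motifs were searched on both strands. A match describes the letters and does not show binding.

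The signals are log2 values that the authors normalized separately for 6 h and 24 h, so levels were compared within a time only. Array medians lay between 4.96 and 5.01 (6 h) and between 5.30 and 5.35 (24 h), and 3 arrays per group limit the precision. Of the markers of the sympathoadrenal lineage, PHOX2A, HAND2, GATA3, ISL1, DBH and STMN2 lay at 7.42 or above on every array. TH, tyrosine hydroxylase, averaged 3.87 at 24 h and less at 6 h, below the level taken as detected here, and the dopamine transporter SLC6A3 between 5.08 and 6.15. The leukocyte markers PTPRC and AIF1 and the astrocyte markers GFAP and AQP4 stayed at or below 5.34, as did the fibroblast marker COL1A2, at 5.15 or below, while COL3A1, DCN and LUM of the fibroblast list lay between 7.03 and 11.34. The last 3 overlapped between the doses at both times.

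Some untreated arrays stood apart from the others. The retinoic acid-degrading enzyme CYP26A1, a gene that retinoic acid induces, was at 4.95 to 5.61 on the 6 cocaine arrays of 6 h, but at 5.01, 10.69 and 10.99 on untreated arrays 1, 2 and 3. At 24 h it was at 4.92 to 6.31 on the cocaine arrays and at 5.40, 6.04 and 9.55 on the untreated ones. CYP26B1, DHRS3 and RARB were likewise highest on those arrays. The added hybridization control bioD, relative to the control cre, ranged over -1.64 to -1.50 with cocaine at 6 h, against -1.11 to -1.02 without it. Untreated arrays 2 and 3 of 6 h were set apart by CYP26A1. Changes against 0 μM at 6 h are therefore also given without them for the probe sets described in detail. With both left out the sign turned for 5 of the 15 family probe sets tested, in 5 against 0 μM and in 1 against 0 μM alike. Only untreated array 1 then remained, so its spread was taken from the cocaine arrays. That array was at -1.11 for bioD relative to cre, apart from the cocaine arrays of 6 h too. Leaving out untreated arrays 2 and 3 thus does not remove this difference, and its part in the changes was not tested.

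**Figure D1:**
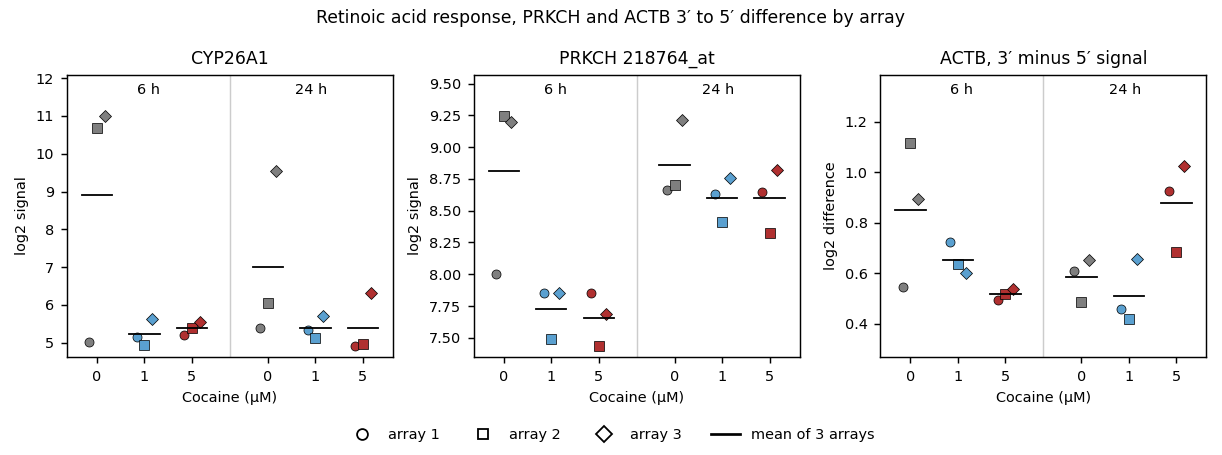
Log2 signal of CYP26A1 and of PRKCH, a PKC outside the 10 genes, and the difference between 3′ and 5′ probe sets of ACTB, on each array by cocaine dose (μM), with 6 h on the left and 24 h on the right of each panel; markers give the array number and lines the mean of 3 arrays. Untreated arrays 2 and 3 of 6 h stand at 10.69 and 10.99 for CYP26A1 and at 9.24 and 9.19 for PRKCH.

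A probe set was tested at a time when its mean over the 9 arrays of that time was above log2(40), which is 5.32. At 6 h 15 of the 32 family probe sets passed, and at 24 h 16 of 32, each time for 7 of the 10 genes. PRKCB, a conventional PKC, did not pass with any of its 6 probe sets, which lay between 3.07 and 5.03 on all arrays. PRKCD, of the calcium-independent class, had 1 probe set, at 4.20 to 5.12, and PRKD1 had 2, at 2.98 to 3.84. These 3 kinases were not detectable above the filter and were not compared between doses. The lowest mean that passed at 6 h was 5.52, of a PRKCQ probe set, and the highest that did not was 5.15, of a PRKD3 probe set.

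At 6 h the family showed no common direction between 5 and 0 μM. Of the 15 probe sets 8 were above zero, and the median log2 change was 0.05, against -0.02 over the 22455 probe sets tested. With limma and a Benjamini-Hochberg adjusted p under 0.10 as the call, 1 member was called higher, PRKCI 209678_s_at, and 1 lower, PRKD2 241669_x_at, whose mean at 5 μM was under the filter. Over all probe sets 1.57% were called higher and 1.42% lower. The family was selected on this comparison, so the counts describe it and nothing is read from them. With the replicate number as a block, 2 members were called higher, PRKD3 222565_s_at being the second, and 1 lower, beside 7.75% and 10.9% of all probe sets. The arrays at 5 and 0 μM did not overlap for 4 members, against 21.2% of all probe sets. The count of 2 calls became 4 without untreated array 1, 1 without untreated array 2, and 0 without 5 μM array 2 or without 5 μM array 3. It was also 0 without both untreated arrays 2 and 3. Over all probe sets the share called was 10.8% without untreated array 1, 0.129% without untreated array 2, and 0% and 0.00445% without 5 μM array 2 or 3.

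**Figure D2:**
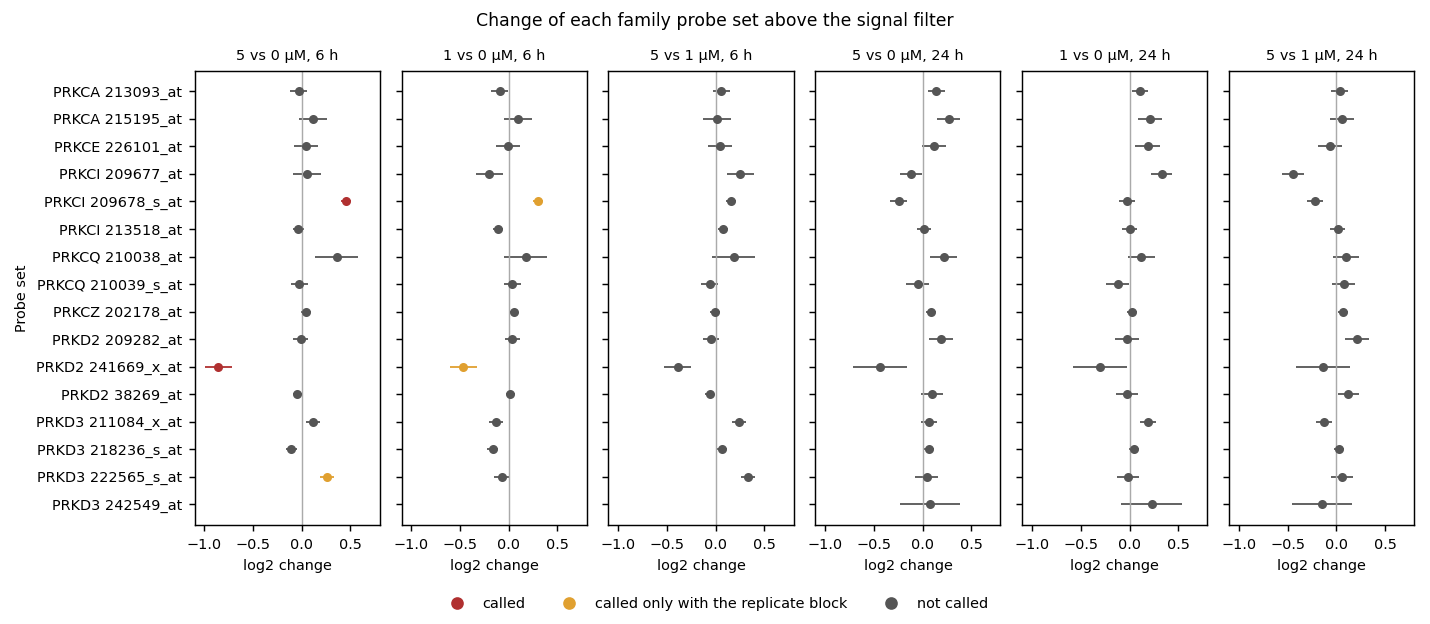
Log2 change (horizontal axis) of each family probe set above the signal filter in the 6 comparisons of doses; points are limma estimates and bars 1 standard error, red for called, orange for called only with the replicate block and grey for not called. PRKCI 209678_s_at at 0.46 and PRKD2 241669_x_at at -0.85 stand apart in the first panel, and no point is called at 24 h.

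Among the conventional kinases, PRKCA was the gene with a strong signal, and neither of its tested probe sets was called in any comparison. Its brightest probe set, 213093_at, was at 11.83, 11.52 and 11.54 without cocaine at 6 h, at 11.60, 11.56 and 11.46 at 1 μM, and at 11.66, 11.59 and 11.55 at 5 μM. Array 1 was the highest at every dose of 6 h, and the doses overlapped. The log2 change was -0.03 for 5 against 0 μM (SE 0.088) and -0.09 for 1 against 0 μM (SE 0.088), or -0.23 and -0.29 without untreated arrays 2 and 3. At 24 h 213093_at was at 11.78, 11.92 and 11.68 without cocaine, at 11.88, 11.98 and 11.84 at 1 μM, and at 11.95, 12.04 and 11.81 at 5 μM. The change for 5 against 0 μM at 24 h was 0.14 (SE 0.084, limma adjusted p = 0.765). The other tested PRKCA probe set, 215195_at, changed by 0.27 in that comparison (SE 0.122, adjusted p = 0.702), with overlapping arrays. Within same-number pairs of 24 h, 5 minus 0 μM was 0.17, 0.12 and 0.14 for 213093_at and 0.23, 0.16 and 0.42 for 215195_at, above zero in each pair. The last of these pairs uses untreated array 3 of 24 h, where CYP26A1 was high. With replicate number as a block, limma gave SE 0.046 and an adjusted p = 0.237 for 213093_at, and SE 0.082 and an adjusted p = 0.222 for 215195_at. At 6 h 215195_at changed by 0.11 for 5 against 0 μM (SE 0.143), and without untreated arrays 2 and 3 the sign turned, to -0.21.

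PRKCE, of the calcium-independent class and known for roles in neurite growth and in ethanol and pain responses in mice, was measured by 1 of its 4 probe sets. At 6 h 226101_at was at 7.49, 7.56 and 7.18 without cocaine, at 7.51, 7.51 and 7.21 at 1 μM, and at 7.59, 7.47 and 7.32 at 5 μM. At 24 h it was at 7.89, 7.79 and 7.54, at 8.09, 7.91 and 7.78, and at 8.06, 7.76 and 7.74 at 0, 1 and 5 μM. Array 3 was the lowest at every dose of both times. The change for 5 against 0 μM was 0.05 (SE 0.124) at 6 h, or -0.03 without untreated arrays 2 and 3, and 0.11 (SE 0.124, limma adjusted p = 0.907) at 24 h. With replicate number as a block, limma gave SE 0.056 and an adjusted p = 0.377 at 24 h.

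PRKCQ, best known from T cell activation and of the same class, lay close to the filter. Its probe set 210038_at was at 6.06, 5.39 and 5.18 on the untreated arrays of 6 h, at 5.99, 5.59 and 5.56 at 1 μM, and at 6.00, 5.95 and 5.75 at 5 μM. Untreated arrays 2 and 3, those with high CYP26A1, were the lowest of the 9, and untreated array 1 was the highest. The change of 0.36 for 5 against 0 μM (SE 0.217) came with a spread of 0.46 (SD, n = 3) among the untreated arrays. Without untreated arrays 2 and 3 its sign turned, to -0.16 for 5 against 0 μM, and for 1 against 0 μM it was -0.35 in place of 0.17. At 24 h the probe set was at 6.22, 5.75 and 5.70 without cocaine, at 5.99, 6.15 and 5.90 at 1 μM and at 6.23, 6.07 and 6.03 at 5 μM, again with overlap. The second PRKCQ probe set, 210039_s_at, changed by -0.02 at 6 h for 5 against 0 μM, or -0.21 without those arrays.

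The atypical kinase PRKCI, which works with PARD3 and PARD6 proteins in cell polarity, had the 6 h change with the smallest error relative to its size in the family. Probe set 209678_s_at was at 9.15, 9.08 and 9.05 without cocaine at 6 h, at 9.37, 9.43 and 9.36 at 1 μM, and at 9.57, 9.57 and 9.51 at 5 μM. No array of a dose overlapped with an array of another dose. The log2 change for 5 against 0 μM was 0.46 (SE 0.051), and 0.40 without untreated arrays 2 and 3. For 1 against 0 μM, which shares the untreated arrays, it was 0.30 (SE 0.051, limma adjusted p = 0.145), and the blocked fit gave an adjusted p = 0.0418. It was 0.24 without untreated arrays 2 and 3. For 5 against 1 μM it was 0.16 (SE 0.051, limma adjusted p = 0.645), which was not called. No untreated array enters that difference, but its error was estimated over all 9 arrays. The difference also shares its 5 μM arrays with the comparison on which the family was selected. A fit to the 6 cocaine arrays alone gave SE 0.049 and an adjusted p = 0.544.

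At 24 h the same probe set was lowest at 5 μM. It was at 9.54, 9.68 and 9.61 without cocaine, at 9.75, 9.57 and 9.44 at 1 μM, and at 9.36, 9.43 and 9.30 at 5 μM. The 5 μM arrays were all below those of both other doses. The change for 5 against 0 μM was -0.25 (SE 0.084, limma adjusted p = 0.605) and for 5 against 1 μM -0.22 (SE 0.084, adjusted p = 0.787). With replicate number as a block, limma gave SE 0.076 for both, with an adjusted p = 0.225 and 0.300. Neither passed the threshold in either fit.

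The brightest PRKCI probe set, 213518_at, did not follow it. This one was at 9.93, 9.90 and 9.90 without cocaine at 6 h, at 9.74, 9.89 and 9.78 at 1 μM, and at 9.88, 9.91 and 9.84 at 5 μM, a change of -0.03 for 5 against 0 μM (SE 0.055), or -0.05 without untreated arrays 2 and 3. At 24 h it was at 10.14, 10.21 and 10.12, at 10.15, 10.25 and 10.08, and at 10.06, 10.31 and 10.14 at 0, 1 and 5 μM, with overlap at every dose. Within arrays, 209678_s_at minus 213518_at averaged -0.82 ± 0.037 at 0 μM, -0.41 ± 0.050 at 1 μM and -0.33 ± 0.017 at 5 μM at 6 h (SD, n = 3 each). At 24 h the differences were -0.55 ± 0.051, -0.57 ± 0.152 and -0.81 ± 0.094 (SD, n = 3 each). The probe sets of this gene thus changed unequally, and which one follows the amount of PRKCI RNA was not tested. For 5 against 1 μM the dimmest probe set, 209677_at, had the sign of 209678_s_at at both times. At 6 h its change was 0.25 (SE 0.140, limma adjusted p = 0.844), with overlap. At 24 h it was at 6.04, 6.16 and 6.33 at 5 μM and at 6.83, 6.63 and 6.42 at 1 μM, a change of -0.45 without overlap (SE 0.110, adjusted p = 0.621). For 5 against 0 μM it differed by 0.05 (SE 0.140) at 6 h, or -0.15 without untreated arrays 2 and 3, and by -0.12 (SE 0.110, adjusted p = 0.882) at 24 h.

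A measure of RNA or labelling quality moved with the PRKCI probe set. The signal of 3′ minus 5′ ACTB probe sets was 0.493 to 0.539 at 5 μM and 0.548, 1.12 and 0.894 on untreated arrays 1, 2 and 3 at 6 h. At 1 μM it was 0.603 to 0.724 at 6 h, overlapping with 0 μM. At 24 h it was 0.686 to 1.03 at 5 μM and 0.488 to 0.654 without cocaine. The same difference for GAPDH was 0.190 to 0.242 at 5 μM and 0.215 to 0.255 at 0 μM at 6 h, with overlap. At 24 h the GAPDH difference was 0.175 to 0.221 at 5 μM and 0.179 to 0.196 at 0 μM, again with overlap. The part of RNA quality in the PRKCI change was not tested. In these pools, fewer cells with a transcript and less of it per cell cannot be told apart.

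PRKCZ, the other atypical kinase, whose brain form PKMζ has been studied for memory in rodents, was represented by 202178_at. It was at 8.69, 8.59 and 8.62 without cocaine at 6 h, at 8.67, 8.67 and 8.70 at 1 μM, and at 8.67, 8.67 and 8.69 at 5 μM. The change for 5 against 0 μM was 0.05 (SE 0.047), or -0.01 without untreated arrays 2 and 3, and the doses overlapped. At 24 h it was at 8.84, 8.77 and 8.79, at 8.84, 8.84 and 8.79, and at 8.94, 8.89 and 8.84 at 0, 1 and 5 μM, a change of 0.09 for 5 against 0 μM (SE 0.052, limma adjusted p = 0.767).

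**Figure D3:**
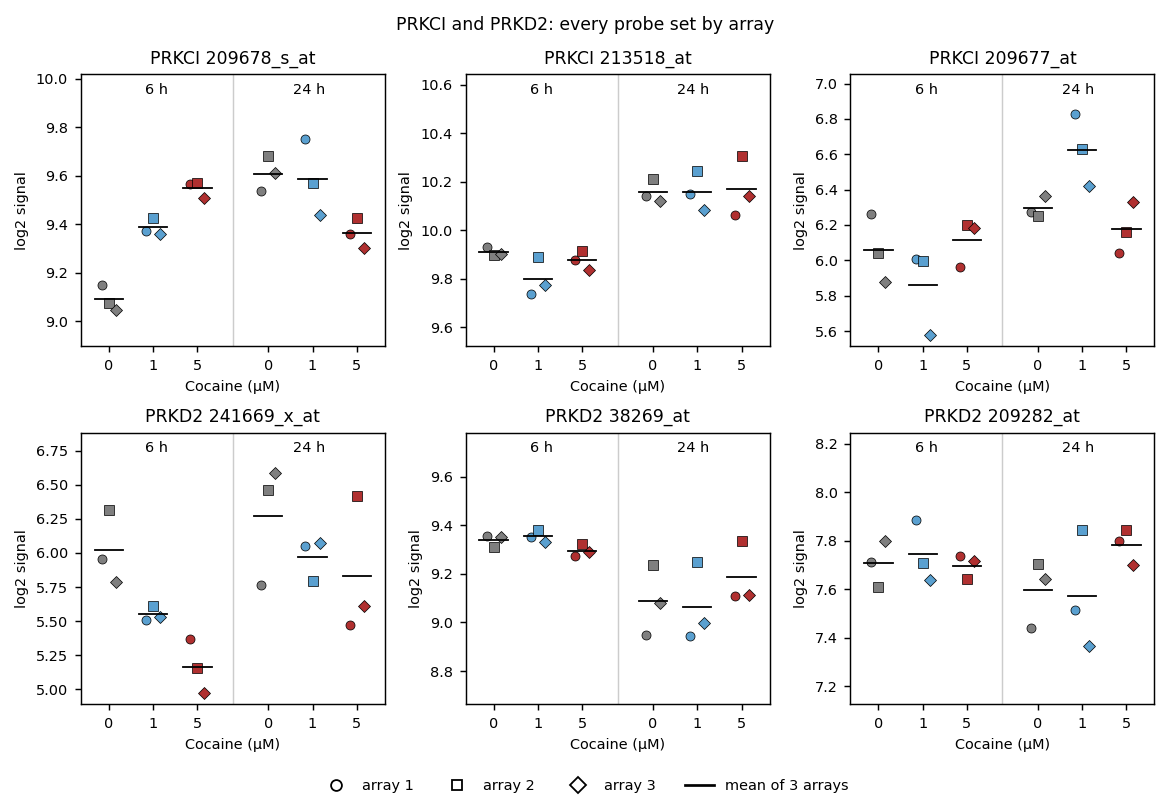
Log2 signal of the 3 probe sets of PRKCI (top) and the 3 of PRKD2 (bottom) on each array by cocaine dose (μM), 6 h on the left and 24 h on the right of each panel; markers give the array number and lines the mean of 3 arrays. PRKCI 209678_s_at separates the 3 doses at 6 h and PRKD2 241669_x_at separates 5 μM (4.97 to 5.37) from 0 μM (5.79 to 6.31), while 213518_at and 38269_at stay nearly level at 6 h.

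Among the PKD genes, PRKD2 had the largest decrease, in its dimmest probe set. Probe set 241669_x_at was at 5.95, 6.31 and 5.79 without cocaine at 6 h, at 5.51, 5.61 and 5.53 at 1 μM, and at 5.37, 5.16 and 4.97 at 5 μM. No dose overlapped with another, and the 5 μM mean of 5.16 lay below the filter level of 5.32, so the probe set was tested because of the other doses and the size of its change is less certain. The suffix _x_at marks probe sets with probes that can match unrelated transcripts, and _s_at those whose probes match several transcripts, often of 1 gene. The log2 change for 5 against 0 μM was -0.85 (SE 0.139), and -0.79 without untreated arrays 2 and 3. For 1 against 0 μM it was -0.47 (SE 0.139, limma adjusted p = 0.225), and with the replicate block the adjusted p was 0.0642. It was -0.40 without untreated arrays 2 and 3. For 5 against 1 μM it was -0.39 (SE 0.139, limma adjusted p = 0.710), and on the 6 cocaine arrays alone the adjusted p was 0.482 (SE 0.102).

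The brightest PRKD2 probe set, 38269_at, was nearly level at 6 h. It was at 9.36, 9.31 and 9.35 without cocaine, at 9.35, 9.38 and 9.33 at 1 μM, and at 9.27, 9.32 and 9.29 at 5 μM, a change of -0.04 for 5 against 0 μM (SE 0.046), or -0.06 without untreated arrays 2 and 3. The remaining probe set, 209282_at, changed by -0.01 in that comparison (SE 0.078), or -0.02 without those arrays. At 24 h 241669_x_at was at 5.77, 6.46 and 6.59 without cocaine, at 6.05, 5.79 and 6.07 at 1 μM, and at 5.47, 6.42 and 5.61 at 5 μM. The doses overlapped, and the change for 5 against 0 μM was -0.44 (SE 0.275, limma adjusted p = 0.780). At 24 h 38269_at changed by 0.10 (SE 0.109) and 209282_at by 0.19 (SE 0.122) between 5 and 0 μM, so the 3 probe sets of PRKD2 did not share a direction.

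PRKD3, the other PKD gene tested, had probe sets that moved in opposite directions between 5 and 0 μM at 6 h. In the other comparisons of 6 h its 3 tested probe sets shared a sign. They changed by -0.17 to -0.07 for 1 against 0 μM and by 0.06 to 0.33 for 5 against 1 μM. The brightest, 218236_s_at, was at 11.02, 10.99 and 11.01 without cocaine at 6 h, at 10.72, 10.90 and 10.90 at 1 μM, and at 10.88, 10.94 and 10.89 at 5 μM. Every cocaine array lay below the untreated ones, by 0.10 at 5 μM (log2 change -0.10, SE 0.060) and by 0.17 at 1 μM (log2 change -0.17, SE 0.060, limma adjusted p = 0.284). Without untreated arrays 2 and 3 these changes were -0.12 and -0.18. Probe set 222565_s_at was at 8.93, 8.70 and 8.74 without cocaine, at 8.63, 8.83 and 8.69 at 1 μM, and at 9.09, 9.04 and 9.02 at 5 μM. Its 5 μM arrays were above all others, with a change of 0.26 against 0 μM (SE 0.077), or 0.12 without untreated arrays 2 and 3, and of 0.33 against 1 μM (SE 0.077, limma adjusted p = 0.558). A further probe set, 211084_x_at, changed by 0.11 for 5 against 0 μM (SE 0.072), or 0.0036 without those arrays, and by 0.24 for 5 against 1 μM (SE 0.072, limma adjusted p = 0.634).

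At 24 h 218236_s_at of PRKD3 was at 11.26, 11.28 and 11.22 without cocaine, at 11.29, 11.27 and 11.34 at 1 μM, and at 11.30, 11.29 and 11.38 at 5 μM. The 5 μM arrays were just above the untreated ones, by 0.07 (SE 0.052, limma adjusted p = 0.849). Probe set 222565_s_at changed by 0.04 (SE 0.116) in that comparison, with overlap. Probe set 242549_at passed the filter at 24 h alone and changed by 0.08 (SE 0.309), and 1554910_at did not pass at either time.

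**Figure D4:**
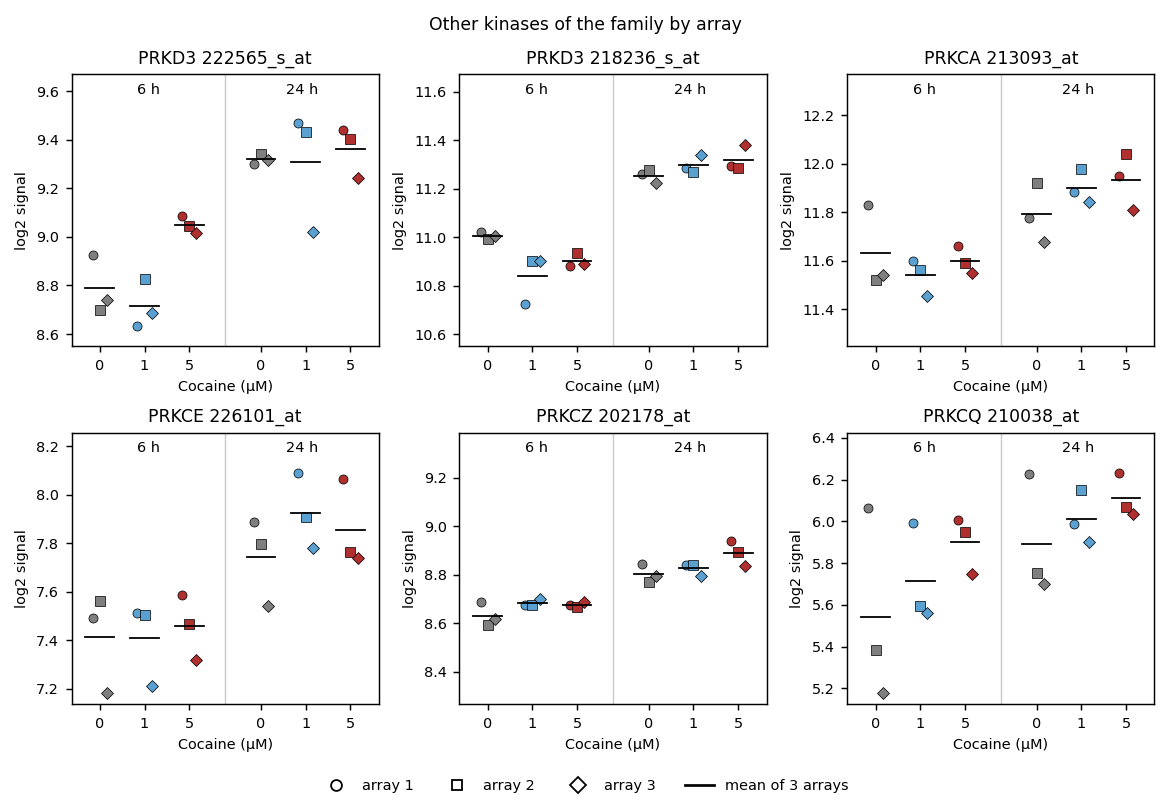
Log2 signal of 2 probe sets of PRKD3 and of the brightest probe sets of PRKCA, PRKCE, PRKCZ and PRKCQ on each array by cocaine dose (μM), 6 h on the left and 24 h on the right of each panel; markers give the array number and lines the mean of 3 arrays. The doses overlap in the PRKCA, PRKCE, PRKCZ and PRKCQ panels, and PRKD3 222565_s_at at 5 μM lies above the other doses at 6 h.

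In the comparison of 1 with 0 μM at 6 h, limma called 0 members, as it called 0% of all probe sets. At an unadjusted p under 0.05 there were 3 members and 3222 probe sets in all. The fit with the replicate block called PRKCI 209678_s_at higher and PRKD2 241669_x_at lower, beside 5.11% and 7.44% of all probe sets. Doses did not overlap for 4 of 15 members, against 17.4% of all. This comparison shares its untreated arrays with that of 5 and 0 μM, and 1 member was called without untreated array 1, where 962 probe sets in all, or 4.28%, were called. The median change was -0.00 for the members and -0.01 for all probe sets.

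In the comparison of 5 with 1 μM at 6 h the difference uses no untreated array, while the errors rest on all 9 arrays. It shares its 5 μM arrays with the comparison of 5 and 0 μM, on which the family was selected. Its counts are therefore a description too, and nothing is read from them. Limma called 0 members and 0% of all probe sets, with or without the replicate block. At an unadjusted p under 0.05 there were 4 members and 1448 probe sets. Fitted to the 6 cocaine arrays alone, limma called 0 probe sets, with 4 members and 1667 probe sets at an unadjusted p under 0.05. The arrays did not overlap for 5 of 15 members, against 13.5% of all probe sets. PRKCI 209678_s_at and 2 PRKD3 probe sets, 211084_x_at and 222565_s_at, were higher at 5 μM in this sense, and 2 PRKD2 probe sets, 241669_x_at and 38269_at, were lower.

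At 24 h no member passed the threshold in limma. For 5 against 0 μM 0 of 16 members were called, beside 0.0123% of the 24307 probe sets tested, or 0.00823% with the replicate block. For 1 against 0 μM the calls were 0 members and 0% of all, and for 5 against 1 μM 0 members and 0.00823% of all, or 0.00411% with the block. At an unadjusted p under 0.05 there were 1, 1 and 2 members in these comparisons, among 1751, 819 and 1488 probe sets in all. In each of them the arrays did not overlap for 2 of 16 members, against 10.4%, 7.2% and 11.1% of all probe sets. The median change for 5 against 0 μM was 0.07 for the members and -0.00 for all probe sets, and 12 of the 16 members were above zero. Without untreated array 3 of 24 h, where CYP26A1 was high, the number of members called was again 0 in all 3 comparisons.

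The probe sets of other genes with the most similar course over the 18 arrays, after each time was centred, came from genes with varied functions. PRKD2 241669_x_at was closest to MYBL1 (r = 0.928), FBRS (0.917), IGHM (0.907) and FUT7 (0.896), among 21339 probe sets. Its correlation with the other probe sets of PRKD2 was 0.255 for 38269_at and -0.0648 for 209282_at. PRKCI 209678_s_at was closest to SECISBP2L (0.933), HSP90B1 (0.929), RSF1 (0.925) and TOP1 (0.917), and its correlation with the probe sets of its own gene was 0.323 for 209677_at and -0.0508 for 213518_at. These arrays share pools and processing, and the values are descriptive.

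The genes that feed, anchor and follow these kinases were taken from lists of 79 genes by role, of which 74 had a probe set with a single symbol. At 6 h 129 of their probe sets were tested. For 5 against 0 μM 2 were called higher and 3 lower, and 38 did not overlap between the doses, with a median of -0.01 against -0.02 over all probe sets. The shares over all probe sets were 1.57% higher, 1.42% lower and 21.2% without overlap. Both called higher belong to AKAP13, a scaffold that binds protein kinase A and PKD. Its probe set 208325_s_at was at 6.64, 6.53 and 6.70 at 5 μM and at 6.19, 5.93 and 5.73 without cocaine, a change of 0.68 (SE 0.107), or 0.43 without untreated arrays 2 and 3. Its probe set 227039_at was at 7.21, 7.19 and 7.11 at 5 μM and at 6.77, 6.32 and 6.49 without cocaine, a change of 0.64 (SE 0.103), or 0.40 without those arrays, so the doses did not overlap in either. The other tested AKAP13 probe sets were not called and differed in direction. They changed by 0.41 (221718_s_at), 0.23 (222024_s_at), 0.13 (209534_x_at) and -0.09 (224884_at). Without those arrays these changes were 0.14, -0.0073, -0.11 and -0.21. Among those called lower was PLCD1, a phospholipase C that releases diacylglycerol, at 6.80, 6.78 and 6.82 at 5 μM and 7.07, 7.01 and 7.00 at 0 μM, a change of -0.22 (SE 0.046), or -0.26 without untreated arrays 2 and 3. The phospholipase PLD2, which PKC can activate, changed by -0.29 (SE 0.054), and HDAC7, a histone deacetylase that PKD phosphorylates, by -0.33 (SE 0.077). Without those arrays their changes were -0.26 and -0.45. With the replicate block 13 were called higher and 25 lower, beside 7.75% and 10.9% of all probe sets. The 5 calls became 0 without untreated arrays 2 and 3, without untreated array 2 alone, or without any 1 of the 5 μM arrays. They became 21 without untreated array 1, 1 without untreated array 3, 2 without 1 μM array 2 and 3 without 1 μM array 3. The shares of all probe sets called were, in the same order, 10.8%, 0.294%, 1.04% and 1.68%. They were 0.129% without untreated array 2 alone, and 0.387%, 0% and 0.00445% without 5 μM array 1, 2 or 3.

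For 1 against 0 μM at 6 h, 0 of these 129 probe sets were called by limma. At an unadjusted p under 0.05 there were 23, beside 3222 of all 22455 tested. With the replicate block 8 were called higher and 13 lower, beside 5.11% and 7.44% of all probe sets. The 3 tested AKAP13 probe sets that the block called had log2 changes of 0.43 to 0.55 at 1 μM (blocked limma adjusted p = 0.0446 to 0.0539), or 0.16 to 0.30 without untreated arrays 2 and 3. The other tested AKAP13 probe sets changed by -0.02 to 0.24, or -0.14 to 0.0064 without those arrays. For 5 against 1 μM 0 were called, with 8 at an unadjusted p under 0.05, beside 1448 of all 22455. At 24 h 138 probe sets were tested and limma called 0 in each comparison. At an unadjusted p under 0.05 there were 16, 3 and 10 for 5 against 0, 1 against 0 and 5 against 1 μM. Over all 24307 probe sets tested at 24 h these counts were 1751, 819 and 1488.

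PRKCH, a calcium-independent PKC outside the 10 genes, was singled out after its values were seen. At 6 h it followed the untreated arrays with high CYP26A1. Its probe set 218764_at was at 7.85, 7.44 and 7.69 at 5 μM and at 8.002, 9.24 and 9.19 on untreated arrays 1, 2 and 3 of 6 h. The change for 5 against 0 μM was -1.16 (SE 0.303) and for 1 against 0 μM -1.09 (SE 0.303, limma adjusted p = 0.200), and the blocked fit gave an adjusted p = 0.0867 for 1 against 0 μM. Without untreated arrays 2 and 3 these changes were -0.34 and -0.27. Untreated array 1, with low CYP26A1, lay just above the 5 μM arrays. The other tested PRKCH probe set, 206099_at, changed by -0.72 for 5 against 0 μM (SE 0.207), with overlap. For 1 against 0 μM it changed by -0.95 (SE 0.207). Without untreated arrays 2 and 3 these changes were -0.20 and -0.43. At 24 h it changed by -0.33 for 5 against 0 μM, without overlap (SE 0.118, limma adjusted p = 0.610). At 24 h 218764_at was at 8.64, 8.32 and 8.82 at 5 μM and at 8.67, 8.70 and 9.21 without cocaine. At 1 μM it was at 8.63, 8.41 and 8.76, so array 3 was the highest at every dose of 24 h.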

How the data were processed

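Levels came from the deposited log2 table, which the authors made with RMA, a method that corrects background, normalizes between arrays and summarizes probes by median polish, the arrays of 6 h and of 24 h separately; versions of RMA and limma are not given in the sources used here. Median polish can give a probe set exactly equal values on several arrays. Gene symbols came from the array annotation and were updated through RefSeq (GRCh38.p14), which matched 41043 of 41097 probe sets with 1 symbol. Kept probe sets had a symbol and averaged above log2(40) at a time, leaving 22455 at 6 h and 24307 at 24 h. Doses of a time were compared on its 9 arrays with limma 3.58.1 in R 4.3.3, with Benjamini-Hochberg adjustment over all kept probe sets and calls at an adjusted p under 0.10. The R package data.table (1.17.8) was used, and figures were made in Python 3.11.15 (matplotlib 3.10.9). The fit was tested on simulated data.

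The members and the gene lists were chosen with earlier results of these data known. Values per array are given for each gene's brightest probe set and for those called in any comparison, with or without the block. Pathway genes are named where called, and likeness is Pearson's r over probe sets kept at both times.

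Doses share replicate numbers. Deviations from group means correlated at 0.377 to 0.768 (6 h) and 0.424 to 0.733 (24 h) in the 9 same-number pairs of each time, and at -0.632 to 0.0711 and -0.575 to 0.165 in the 18 others. The numbers thus pair the arrays, and a fit with the number as a block, which called PRKCI 209678_s_at in 1 against 0 μM at 6 h with an adjusted p = 0.0418, was run as an alternative. Further settings changed the signal filter, added unnamed probe sets, used the 6 arrays compared, or applied an intensity trend, array weights, quantile normalization, median centring or a stricter threshold, and arrays were left out in turn.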

Additional observations from a re-analysis of the deposited data

Results flagged for a closer look

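Some changes pointed opposite ways at 6 and 24 h, with every 5 μM array on one side of the comparison arrays at 6 h and on the other side at 24 h. For PRKCI 209678_s_at this held for 5 against 0 μM, with log2 changes of 0.46 at 6 h and -0.25 at 24 h. It held as well for 5 against 1 μM, with 0.16 at 6 h and -0.22 at 24 h. For PRKD3 218236_s_at the changes for 5 against 0 μM were -0.10 at 6 h and 0.066 at 24 h. The brightest PRKCI probe set, 213518_at, changed by -0.03 and 0.01 in that comparison, with overlap at both times. How many of all probe sets turned sides was not counted. Arrays at 5 and 0 μM did not overlap for 21.2% of all at 6 h and 10.4% at 24 h. For 5 and 1 μM these shares were 13.5% and 11.1%. The difference between the times was not tested in any of these cases. The 6 h change for 5 against 0 μM belongs to the comparison on which the family was selected. The 6 h change for 5 against 1 μM shares its 5 μM arrays. Between 5 and 0 μM, the ACTB 3′ minus 5′ difference moved the opposite way to PRKCI 209678_s_at. It was 0.493 to 0.539 for 5 μM and 0.548 to 1.12 for 0 μM at 6 h. At 24 h it was 0.686 to 1.03 for 5 μM and 0.488 to 0.654 for 0 μM. For 1 μM at 6 h it was 0.603 to 0.724, overlapping with 0 μM, and its part was not tested.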

How the results depend on the processing

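For 5 against 0 μM at 6 h, the 2 members called became 1 with the 6 arrays of the compared doses, 4 with array weights and 0 without untreated arrays 2 and 3, and leaving out 1 array at a time gave 0 to 4. The 5 pathway probe sets called became 3 without a signal filter, 38 with the replicate block, 0 with the 6 arrays, 3 with an intensity trend, 32 with array weights, 8 after quantile normalization, 9 after median centring, 2 at an adjusted p under 0.05 and 0 without untreated arrays 2 and 3. Leaving out 1 array gave 0 to 21, the highest without untreated array 1. For 1 against 0 μM at 6 h, the 0 members called became 2 with the replicate block and 2 with array weights, and leaving out 1 array gave 0 to 1. The 0 pathway probe sets became 21 with the block and 11 with array weights, and 0 to 9 with 1 array left out. Of these alternatives, the share of all probe sets called was counted only for the block and for single arrays left out. Nothing about the family or its pathway is read from the other counts. The block changed no other call beyond those given. The counts for 5 against 1 μM at 6 h and for all comparisons at 24 h were 0 under every alternative run. Over all probe sets, the calls for 5 against 0 μM at 6 h numbered 2432 without untreated array 1, 29 without untreated array 2, 66 without untreated array 3, and 87, 0 and 1 without 5 μM array 1, 2 or 3. The cause was not tested. With 1 array of a group left, as without untreated arrays 2 and 3, that array was assumed to vary like the others. No direction reversed in the alternatives run for PRKCI 209678_s_at, PRKD2 241669_x_at and PRKD3 222565_s_at at 6 h in 5 against 0 μM. These probe sets were followed because they were called in that comparison, on which the family was selected. The alternatives reuse its arrays, so the kept signs give no separate support. Without untreated arrays 2 and 3, PRKCA 215195_at, PRKCE 226101_at, PRKCI 209677_at, PRKCQ 210038_at and PRKCZ 202178_at turned sign in that comparison, PRKCQ to -0.16. Levels near log2(40) limit PRKD2 241669_x_at and PRKCQ.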
